A study of Mus musculus with 18 samples.

Results

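The synaptic vesicle release machinery was followed here as 48 genes, chosen by gene symbol out of the 55335 genes of the deposited matrices. The list was made with earlier results of these data known. They fall into 6 roles, which are 9 SNARE proteins and their partners, 12 synaptotagmins and other calcium sensors, 7 synapsins and vesicle membrane proteins, 4 genes of Rab3 and its effector, 5 priming factors and 11 active zone scaffolds. All 48 symbols were present in the matrices. Single-nucleus RNA-seq was run on the forebrain of embryonic day 14 (E14) mice of the MYT1L S710fsX line, which carries a frameshift in Myt1l, the gene of a zinc finger transcription factor of neurons. WT, Het and KO embryos on a C57BL/6 background came from 3 litters, with 3 animals per genotype, and the nuclei of each animal were sequenced in 2 runs, giving 18 libraries. The mutation is constitutive, so every cell of a Het or KO embryo carries it, and KO animals do not survive after birth. The study asked how loss of Myt1l alters the developing forebrain, and the comparisons below give the release genes from progenitors to neuron subtypes and between genotypes.

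Fast transmitter release depends on a vesicle SNARE (synaptobrevin, the product of Vamp1 and Vamp2) that zips together with syntaxin (Stx1a) and SNAP-25 (Snap25) of the plasma membrane, after which the ATPase NSF takes the spent complex apart. Munc13 proteins (Unc13 genes) and CAPS proteins (Cadps genes) make docked vesicles ready for fusion, complexins clamp them, and synaptotagmins sense the calcium that triggers fusion. RIM, Bassoon, Piccolo, ELKS (Erc genes) and liprin-alpha (Ppfia genes) form the active zone, the patch of presynaptic membrane where vesicles dock, and synapsins and Rab3 hold and route the vesicles behind it. In the embryonic forebrain most of these neurons are newly born and few synapses have formed.

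From 261143 barcodes (4812 to 27999 per library), 194399 nuclei were kept, or 14800 to 26049 per animal, with 42855729 to 73808619 UMIs (unique molecular identifiers, one per captured transcript) per animal. Nuclei were clustered without the 48 genes and without 68 further vesicle release and recycling genes, and clusters were named from marker lists. The names are therefore rebuilt ones, meant as "radial glia-like", "excitatory neuron-like" and so on throughout, and need not match the study's. Radial glia held 25569 nuclei, excitatory intermediate progenitors 23425, excitatory neurons 49366 (5 clusters), inhibitory progenitors 7966, inhibitory neurons 53594 (10 clusters) and Cajal-Retzius cells, an early-born neuron type of the cortical surface, 1984. Clusters left unnamed (numbers 5, 14, 21 and 27) held 15.7% of the nuclei. Of the inhibitory clusters, cluster 4 was led by Chat, the acetylcholine-synthesis gene, and clusters 3 and 16 had their inhibitory markers below the average of all clusters. Levels are given as CPM, the UMIs of a gene summed over an animal's nuclei of one class and scaled to a total of 1000000 UMIs, so that each animal counts once. The intermediate progenitor class joined clusters 10, 11 and 12, whose listed cell cycle genes had a mean log2 CPM of 7.91, 5.27 and 4.39. The share of nuclei past division in this class was not tested. Myt1l itself, whose frameshift need not lower its transcript, stood at 1951 to 2228 CPM in WT, 2186 to 2452 CPM in Het and 2437 to 2741 CPM in KO excitatory neurons and so does not check the genotype labels. WT replicate 3 was the one animal with Xist at 374 CPM, against 0.41 to 0.72 CPM in the others, and Syn1 and Syp lie on the X chromosome. A total of 3740 barcodes occurred in more than 1 library, of which 3429 were shared between animals.

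Between radial glia, the stem cells of the cortex, and excitatory neurons, 33 of the 48 genes were higher in the neurons in 9 of 9 animals and 13 were lower in 9 of 9. Relative to each animal's median over all genes, 36 lay above and 7 below in 9 of 9 (Vamp1, Stxbp5, Syt9, Syt11, Syt17, Cadps2 and Rims3). Among the 37 release genes of at least 20 CPM in either class, 75.7% were higher and 21.6% lower, with a median log2 ratio of 1.71. The same counts over all 8036 genes of that level were 28.3% higher and 59.0% lower, with a median of -0.33. All of the ratios between classes are descriptions, because the clusters were drawn from the same nuclei. Each was taken per animal with 1 CPM added to both sides, and means are given ± SD over the 9 animals. Levels were also set beside those of cluster 27, a mixed group of 692 nuclei led by microglial and vascular genes, and 13 of the 48 genes in radial glia and 10 of the 48 in excitatory neurons were no higher than there. Cluster 27 is no measure of free RNA, since Cadps2 was at 85.98 CPM in it and at 8.91 CPM in excitatory neurons of the same libraries.

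**Figure D1:**
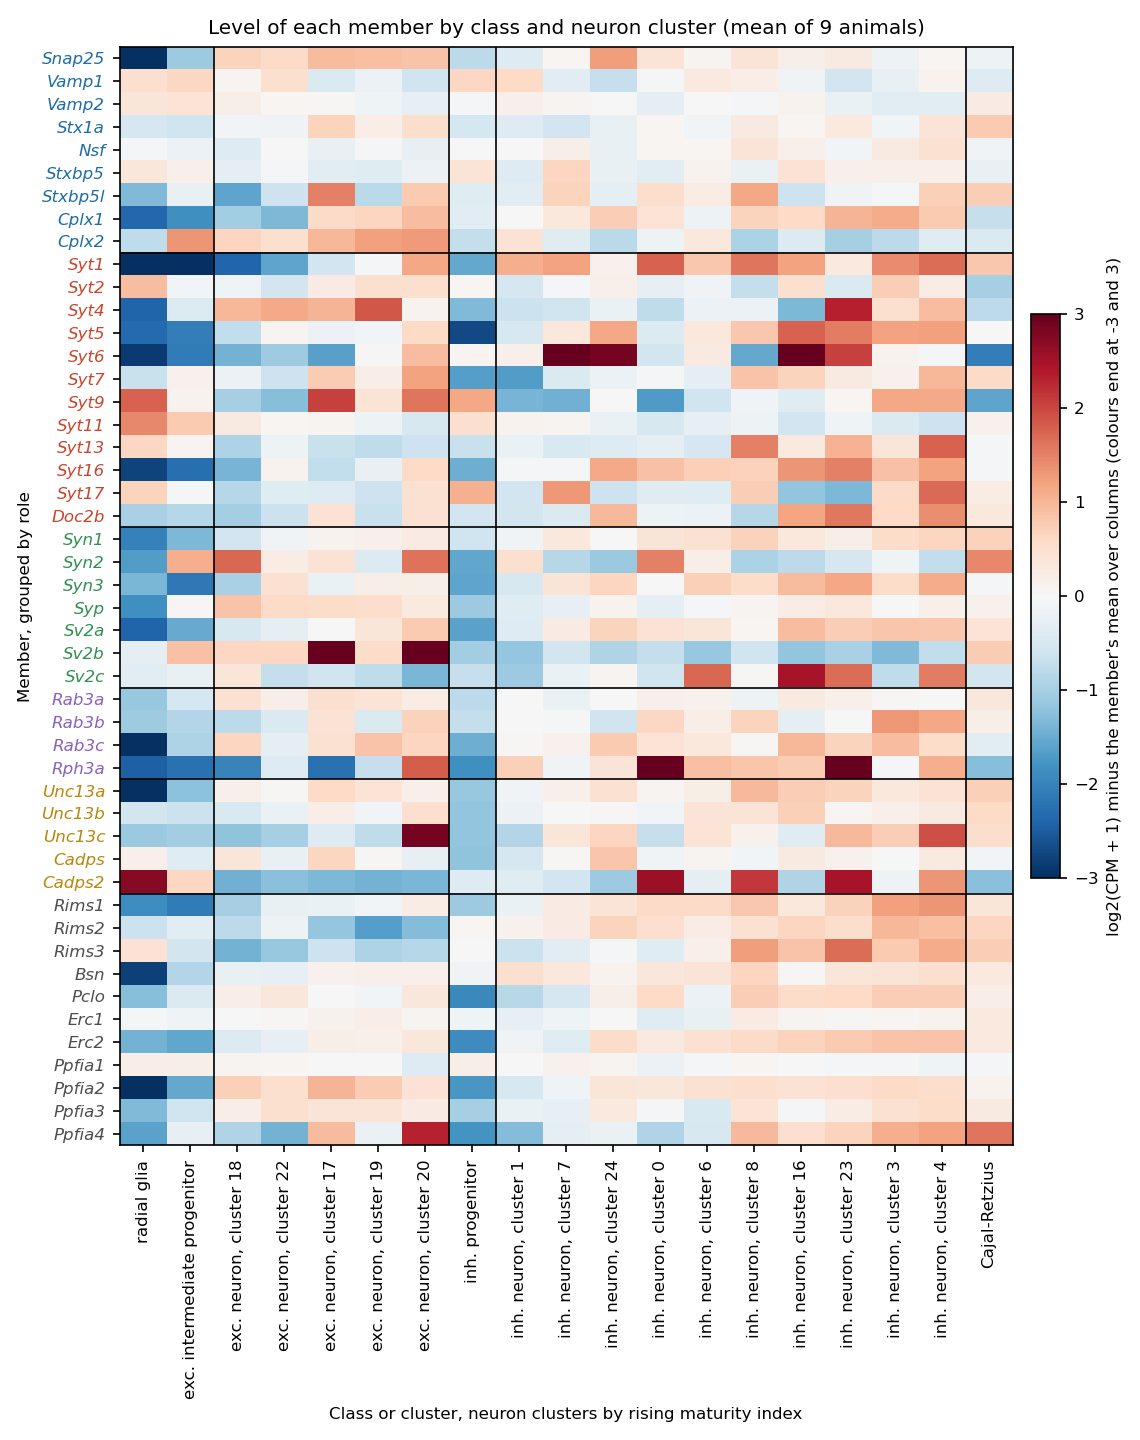
Heat map of the 48 release genes (rows, grouped by role) in progenitor classes and neuron clusters (columns, neuron clusters ordered from early to maturing within each lineage). Colour is log2(CPM + 1) minus the gene's own mean over the columns, with colours ending at -3 and 3; most rows turn from low in the progenitor columns to high in the neuron columns, while Cadps2, Syt11 and Stxbp5 run the other way on the excitatory side.

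The SNARE group was split. Snap25, with Rab3c, had the widest ratio of excitatory neurons to radial glia of the 48, and the order of these 2 turned when 1 animal was left out. The level of Snap25 over the 9 animals had a lowest, median and highest value of 8.997, 11.5 and 15.2 CPM in radial glia, 94.8, 98.0 and 125 CPM in intermediate progenitors and 353, 403 and 450 CPM in excitatory neurons. The ranges of the 3 classes did not overlap, and the median log2 ratio of neurons to radial glia was 5.01 (range 4.75 to 5.27). Of the 3 classes, complexin 2 (Cplx2) had its highest mean in intermediate progenitors, at 75.5 ± 8.82 CPM. Radial glia had 16.8 ± 1.97 CPM and excitatory neurons 60.7 ± 5.58 CPM (ratio of neurons to radial glia 1.84, range 1.496 to 2.11). In the excitatory clusters 20 and 19 Cplx2 was at 72.5 ± 9.31 and 70.6 ± 8.55 CPM. Cplx1 stayed low, at 13.95 CPM in excitatory and 16.99 CPM in inhibitory neurons. Vamp2, Nsf and Stxbp5 (tomosyn, which holds syntaxin away from fusion) were lower in excitatory neurons than in radial glia in 9 of 9 animals, by a median log2 ratio of -0.41, -0.17 and -0.62 (range for Stxbp5 -0.73 to -0.48). Set against the median of all genes, which itself lay at -0.34 to -0.31 by animal, Stxbp5 was below it in 9 of 9 animals, while Vamp2 and Nsf were not below it in all 9. The tomosyn relative Stxbp5l was higher instead, with a ratio of 1.54. Vamp2, Nsf, Stxbp5 and Stx1a were also no higher in excitatory neurons than in cluster 27. All levels are of RNA in nuclei, and neither RNA of the whole cell nor protein was measured. Vamp2 spans 3.9 kb and Syt1 513.3 kb, and the part of gene length in the counts was not tested.

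Among the synaptotagmins, Syt1, the calcium sensor of fast release, changed late. Its mean was 69.8 ± 8.63 CPM in radial glia and 72.1 ± 12.9 CPM in intermediate progenitors (SD, n = 9), and 808 ± 57.3 CPM in excitatory neurons, a median log2 ratio of 0.02 for the first step and 3.46 for the second. Over both steps the ratio was 3.55 (range 3.20 to 3.70). Syt4, an unusual synaptotagmin that binds little calcium, took the first step already, with a ratio to radial glia of 2.25 in intermediate progenitors and 4.02 (range 2.08 to 4.46) in excitatory neurons. Syt16, a relative not thought to bind calcium, stood at 19.6 ± 2.05 CPM in radial glia and 123 ± 13.3 CPM in excitatory neurons (ratio 2.55, range 2.46 to 2.75). Syt7, a slow high-affinity calcium sensor, was nearer to level, at 26.2 ± 3.33 and 60.7 ± 9.39 CPM (ratio 1.19, range 0.83 to 1.37). Syt11 ran the other way, with 612 ± 191 CPM in radial glia, 392 CPM in intermediate progenitors and 221 ± 45.4 CPM in excitatory neurons. Its ratio of -1.53 (range -1.62 to -1.08) lay below the median of all genes in each of the 9 animals. Syt9 also was lower, with a ratio of -0.86. Vamp1, Syt2, Syt13, Syt17 and Doc2b were under 20 CPM in every one of these classes.

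Of the synapsin and vesicle membrane genes, 6 of 7 were higher in excitatory neurons than in radial glia in 9 of 9 animals, none was lower in all, and the median log2 ratio was 2.40. Syn2 was raised already in intermediate progenitors, with means of 37.8 ± 6.49, 265 ± 23.4 and 269 ± 4.44 CPM along the 3 classes, whereas Syn3 first went down and then up, with 88.4 ± 8.38, 51.3 ± 4.2 and 217 ± 9.62 CPM (ratio of neurons to radial glia 1.29, range 1.13 to 1.60). Syp (synaptophysin, an abundant vesicle protein) had 18.6 ± 2.25, 71.3 ± 5.97 and 104 ± 4.80 CPM. The 3 SV2 transporter-like proteins parted by lineage. Sv2a was high in both kinds of neuron (62.7 ± 10.9 CPM excitatory, 74.8 ± 11.4 CPM inhibitory) and had a ratio of excitatory neurons to radial glia of 2.88 (range 2.08 to 3.13). Sv2b was at 49.7 ± 6.69 CPM in excitatory and 3.18 ± 0.51 CPM in inhibitory neurons, and its ratio to radial glia was 2.98 (range 2.47 to 3.47). Sv2c was at 6.97 and 18.9 CPM. For Sv2b the log2 ratio of excitatory to inhibitory neurons was 3.52 (range 3.44 to 3.81), the widest gap between the neuron classes among the 48.

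All 4 genes of the Rab3 group were higher in excitatory neurons than in radial glia. Rab3c, a GTPase of the vesicle surface, had a lowest, median and highest level of 171, 186 and 227 CPM in intermediate progenitors and 526, 553 and 630 CPM in excitatory neurons, against a mean of 16.4 ± 3.65 CPM in radial glia (ratio of neurons to radial glia 4.98, range 4.52 to 5.42). The Rab3 effector rabphilin (Rph3a) was at 2.19 CPM in radial glia and 2.70 CPM in intermediate progenitors, at 20.1 ± 3.53 CPM in excitatory neurons (ratio to radial glia 2.91, range 2.26 to 3.15) and at 77.8 ± 8.11 CPM in inhibitory neurons. Of the priming factors, Unc13a (Munc13-1, required for priming in most forebrain synapses) had means of 6.66 ± 1.51, 38.6 and 112 ± 7.99 CPM along the excitatory classes (ratio of neurons to radial glia 3.93, range 3.48 to 4.197). Unc13c was at 6.29 ± 1.39, 6.60 ± 0.655 and 35.0 ± 5.08 CPM (ratio 2.27, range 1.96 to 2.95), so its change fell between intermediate progenitors and neurons. Cadps was at 1041 ± 94.2 CPM in radial glia, 731.7 ± 99.8 CPM in intermediate progenitors and 1063 ± 56.4 CPM in excitatory neurons. It was lower in intermediate progenitors than in radial glia in 9 of 9 animals (ratio -0.52) and higher in neurons than in intermediate progenitors in 9 of 9 (0.57), so that neurons against radial glia gave a ratio of 0.05 (range -0.21 to 0.14, above 0 in 7 of 9). Its relative Cadps2 had the lowest ratio of the 48, going from 172 ± 13.4 CPM in radial glia through 38.8 CPM to 8.91 ± 0.973 CPM in excitatory neurons, a ratio of -4.06 (range -4.54 to -3.84).

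Most active zone scaffolds were higher in the neurons, with 8 of 11 above and 3 below radial glia in 9 of 9 animals. The liprin Ppfia2 was at 79.4 ± 8.11 CPM in radial glia, 274 CPM in intermediate progenitors and 1296 ± 90.6 CPM in excitatory neurons (ratio 4.08, range 3.78 to 4.31). Bassoon (Bsn) had means of 9.99 ± 1.56, 40.4 ± 3.87 and 76.6 ± 5.65 CPM (ratio 2.78, range 2.54 to 3.08), and Erc2 330 ± 16.5, 301 ± 17.9 and 914 ± 17.99 CPM. Rims1 followed the late course of Syt1, with 96.8 ± 5.36, 82.6 ± 7.31 and 310 ± 27.2 CPM. Rims2 was lower in excitatory neurons than in both progenitor classes, with 468 ± 33.2, 585 ± 65.2 and 347 ± 51.1 CPM (ratio to radial glia -0.48, range -0.59 to -0.26), and Rims3 was at 11.7 CPM in radial glia and 3.81 CPM in excitatory neurons. Erc1 and Ppfia1, which most tissues express, had ratios of 0.13 and -0.23.

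**Figure D2:**
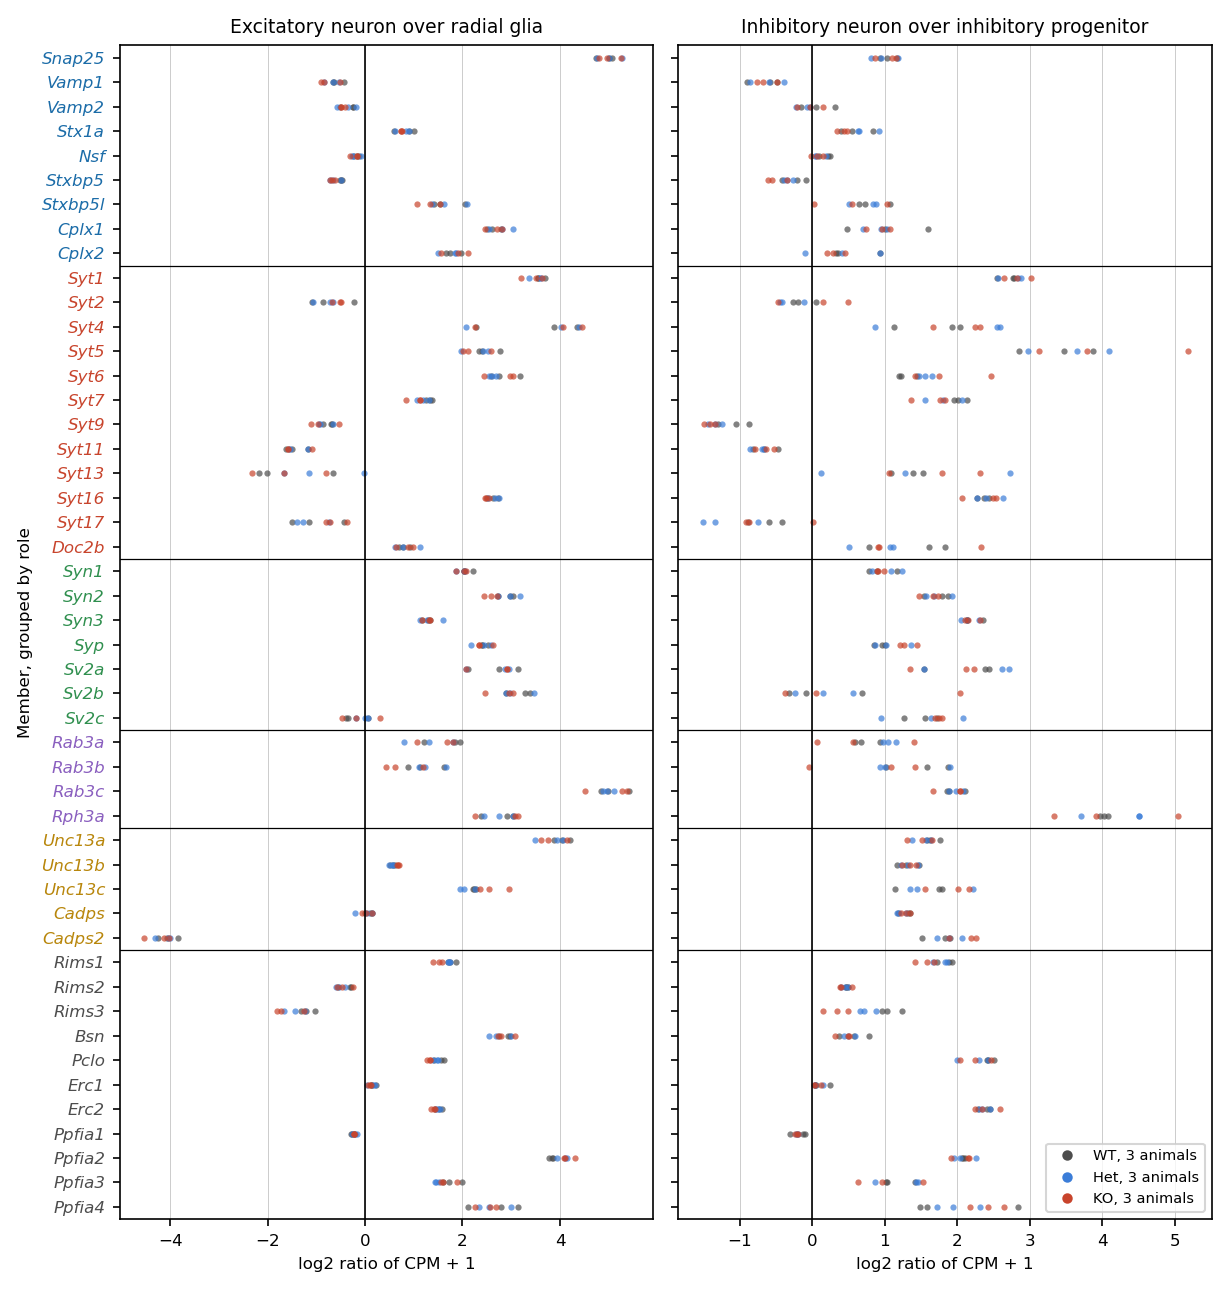
Log2 ratio of CPM, with 1 CPM added, for each of the 48 genes (rows by role), with excitatory neurons over radial glia in one panel and inhibitory neurons over inhibitory progenitors in the other; each point is 1 of 9 animals and the line at 0 marks equal levels. Snap25 and Rab3c lie near 5 on the excitatory side, Cadps2 lies near -4 there and near 1.9 on the inhibitory side.

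The inhibitory lineage gave a similar count with different genes leading. From inhibitory progenitors to inhibitory neurons 36 of the 48 genes were higher and 5 lower in 9 of 9 animals. Of the 36 with at least 20 CPM, 80.6% were higher with a median log2 ratio of 1.396, against 26.9% higher and a median of -0.21 over all 7684 genes of that level. Rph3a (4.02), Syt5 (3.66), Syt1 (2.78), Pclo (2.42), Syt16 (2.40) and Erc2 (2.34) had the widest ratios, and Syt11 and Syt9 were again lower (-0.67 and -1.34). Snap25 was at 131 ± 13.7 CPM in the progenitors already and its ratio was smaller, at 1.03. Cadps2 went the other way from the excitatory side, from 19.03 CPM in inhibitory progenitors to 75.0 ± 13.1 CPM in inhibitory neurons (ratio 1.89, range 1.52 to 2.27). In both inhibitory classes Cadps2 was no higher than in cluster 27. Between the neuron classes, Syt1 was lower in excitatory than in inhibitory neurons by a log2 ratio of -1.28, Rims2 by -1.55, Syt6 by -1.79 and Rph3a by -2.06, and Cplx2 was higher by 1.37. In Cajal-Retzius cells 10 of the 48 genes were higher and 14 lower than in excitatory neurons in 9 of 9 animals, with Syn2 at 335 CPM, Stx1a at 48.9 CPM and Ppfia4 at 31.0 CPM at their highest mean among the 6 classes. At 20 CPM or more, 24.3% of the release genes were higher and 32.4% lower, beside 25.0% and 19.9% of all genes. Stx1a and Ppfia4 were higher in cluster 27, outside the 6 classes, than in Cajal-Retzius cells, at 128 and 59.7 CPM.

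For comparison, the 68 other genes of vesicle release and recycling (endocytosis proteins, further SNAREs, proton pump and transmitter transporter genes among them) had smaller median ratios. Both lists were chosen with earlier results of these data known, so the difference between them is a description only. Of these, 33 were higher and 17 lower in excitatory neurons than in radial glia in 9 of 9 animals, with a median log2 ratio of 0.22, and 35 were higher and 8 lower in inhibitory neurons than in their progenitors, with a median of 0.34. Without a minimum level the 48 release genes had medians of 1.495 and 1.08. At 20 CPM or more, 58.1% of the other genes were higher and 30.2% lower on the excitatory side (median 0.44), beside 28.3% and 59.0% of all genes. On the inhibitory side 60.5% were higher and 15.8% lower (median 0.34), beside 26.9% and 48.3% of all genes.

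Neuron clusters were ordered by maturity, the mean log2 CPM of 12 maturing-neuron genes minus that of 12 early-neuron genes. In the excitatory order this index was 0.89 in cluster 18 and 1.48 in cluster 22 (upper-layer or migrating neurons), and 2.42, 2.93 and 3.96 in clusters 17, 19 and 20 (deep-layer neurons). Cluster 22 met only 3 of 6 upper-layer or migrating markers and was led by Tfap2d, so its subtype is uncertain. Its excitatory markers had a mean log2 fold of 0.03 over the other clusters. From cluster 18 to cluster 20, 24 of the 48 genes were higher and 10 lower in 9 of 9 animals. At 20 CPM or more, 55.3% of the release genes were higher, against 22.9% of all genes. Wide ratios of cluster 20 to cluster 18 were those of Unc13c (log2 ratio 4.06), Rph3a (3.70), Syt1 (3.54), Sv2b (3.54) and Ppfia4 (3.26), followed by Syt9 (2.70), Syt6 (2.37), Stxbp5l (2.32), Syt16 (2.05) and Syt7 (1.44). Sv2c, Syt4 and Syp were lower in cluster 20, with ratios of -1.55, -0.89 and -0.62. The synaptotagmins had a median ratio of 1.39 in this step, the vesicle membrane group 0.82, the Rab3 group 0.77, the SNARE group 0.20, the active zone 0.12 and the priming factors -0.02, beside -0.25 for all genes of at least 20 CPM. With the same minimum the Rab3 group had 1.88 (2 genes), the synaptotagmins 1.74 and the vesicle membrane group 0.998. The priming factors then had 0.46, the SNARE group 0.398 and the active zone 0.11, so the order of the groups depended on the minimum. Nuclei of the older cluster also held more UMIs, a mean of 3524 in cluster 20 against 2514 in cluster 18, and the part of depth in these ratios was not tested. The 2 clusters differ in layer name as well as in maturity, and the part of subtype was not tested. Between them the course was uneven. From cluster 17 to cluster 19, 9 of the 48 genes were higher and 15 lower in 9 of 9 animals. Of the excitatory clusters, Rph3a was lowest and Syt9 highest in cluster 17.

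The 15 clusters of excitatory and inhibitory neurons were then ranked for each gene, leaving out the unnamed clusters 5 and 21, diencephalic neurons and Cajal-Retzius cells. Sv2b was at 131 ± 14.4 CPM in cluster 20 and 62.6 ± 3.33 CPM in the next, cluster 17, and Ppfia4 was at 51.4 ± 6.63 CPM in cluster 20 and 23.3 ± 7.30 CPM in cluster 4. Among these 15 clusters, the animals of the highest did not overlap those of the second for these 2 of the 48 genes only. Outside this ranking, Ppfia4 was at 59.7 CPM in cluster 27. With the members kept in the clustering, Sv2b was among the leading genes of an unnamed cluster of 3605 nuclei led by Sim1. Rph3a was highest in direct-pathway striatal neurons (cluster 23, 219 ± 22.5 CPM) and in medial ganglionic eminence interneurons (cluster 0, 150.5 ± 23.0 CPM), and lowest in cluster 17 at 2.71 CPM. Syt6 was highest in cluster 16 (343 ± 47.8 CPM), which met 5 of 6 indirect-pathway striatal markers. Next was cluster 7 (274 CPM), which met only 3 of these 6 and was led by Aldh1a3, so its subtype is uncertain. Syt1 was highest in cluster 0 (2795 ± 118 CPM) and Cadps2 in clusters 0 (156 ± 29.7 CPM) and 23 (143 CPM). Syt9 had its highest level in cluster 17, at 57.1 ± 7.04 CPM. At the other end, the highest cluster exceeded the lowest by only 1.41-fold for Ppfia1, 1.44-fold for Vamp2, 1.52-fold for Erc1 and 1.59-fold for Rab3a.

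Promoter sequences, 250 bases before to 50 after the start of each gene, were found in RefSeq (GRCm38.p6) for 38 of the 48 genes. They were searched on both strands for TTCAGCACC, one end of the RE1 element bound by REST, a repressor of neuronal genes in cells that are not neurons, and for AAGTT, the core recognised by MYT1L. TTCAGCACC was found in 3 release genes and in 0.371% of all 32851 promoters, and AAGTT in 13 release genes and in 39.3% of all promoters. The 38 release genes held 50 promoters and were counted by gene, whereas the shares are of single promoters, so the units differ. The 3 promoters with TTCAGCACC are printed because all 3 genes (Syn1, Ppfia3 and Unc13a) were higher in excitatory neurons than in radial glia, by log2 ratios of 2.03, 1.60 and 3.93, as were 33 of the 48. They lie at chrX:20920869-20921168, chr7:45366970-45367269 and chr8:71671708-71672007, all on the minus strand, and are written 5′ to 3′ in the direction of the gene with the match in capitals, which in Unc13a is on the opposite strand and so reads as its reverse complement.
Syn1: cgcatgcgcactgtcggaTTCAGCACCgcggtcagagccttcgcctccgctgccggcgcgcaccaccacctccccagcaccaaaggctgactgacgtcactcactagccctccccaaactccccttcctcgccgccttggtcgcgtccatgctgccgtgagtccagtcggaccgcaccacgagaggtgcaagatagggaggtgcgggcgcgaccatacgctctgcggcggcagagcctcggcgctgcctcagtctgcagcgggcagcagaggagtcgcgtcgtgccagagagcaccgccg
Ppfia3: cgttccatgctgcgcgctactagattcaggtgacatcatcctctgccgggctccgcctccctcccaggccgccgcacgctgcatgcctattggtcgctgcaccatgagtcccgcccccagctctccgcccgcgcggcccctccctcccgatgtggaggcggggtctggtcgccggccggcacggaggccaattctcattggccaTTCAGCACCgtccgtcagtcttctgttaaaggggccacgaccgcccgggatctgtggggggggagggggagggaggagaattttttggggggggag
Unc13a: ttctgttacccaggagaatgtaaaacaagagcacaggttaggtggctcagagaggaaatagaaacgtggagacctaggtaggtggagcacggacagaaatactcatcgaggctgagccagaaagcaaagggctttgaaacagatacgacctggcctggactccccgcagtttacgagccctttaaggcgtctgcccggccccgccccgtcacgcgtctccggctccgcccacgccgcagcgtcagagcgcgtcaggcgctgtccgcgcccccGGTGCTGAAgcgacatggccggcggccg
The match began -232 and -46 bases from the start of Syn1 and Ppfia3, where negative positions lie before the start, and 23 bases after the start of Unc13a. A match of letters is a description of the sequence and no evidence that a factor binds there.

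Genotypes were compared on counts summed per animal with edgeR's quasi-likelihood test, and genes were called below a Benjamini-Hochberg adjusted p of 0.05 if they also had a log2 fold change of more than 0.2, up or down. Replicate numbers were taken to pair the samples because of correlations in these same counts, and the labels do not say what the numbers stand for. The same fit with the replicate number as a block is given beside results where it moved a count of calls. In excitatory neurons of KO compared to WT, 2 of the 48 genes were called, Syt7 and Syt16, and both were lower. This is to be read against 144 of 18511 genes called (0.778%), of which 91 were higher and 53 lower (0.286%). A lower share of molecules in a class can come from less RNA of the gene per nucleus or from a change in which nuclei make up the class, and sums per class cannot tell these apart.

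Syt7 lies at chr19:10389090-10453180 on the plus strand and Syt16 at chr12:73997661-74273267 on the plus strand (GRCm38, GENCODE vM21). Gm26859 and AC124169.1 overlap Syt7, 1 of them on the same strand, and Gm29587 overlaps Syt16 on the opposite strand. The reads of these genes could not be told apart here. Syt7 was at 70.4, 66.8 and 72.2 CPM in WT replicates 1 to 3, at 65.2, 55.8 and 64.0 CPM in Het and at 49.5, 44.7 and 58.2 CPM in KO excitatory neurons. Each KO animal lay below each WT animal, and 2 of the 3 Het animals lay between them. The fitted log2 fold change of KO to WT was -0.43 (SE 0.083, edgeR adjusted p = 0.0322, and 0.000204 with the replicate block). Syt16 was at 144, 129 and 133 CPM in WT, 126, 119 and 131 CPM in Het and 109, 101 and 115 CPM in KO. Again no KO animal reached a WT animal, while Het overlapped WT. Its log2 fold change was -0.29 (SE 0.061, edgeR adjusted p = 0.0440, and 0.00157 with the replicate block). Both calls are close to the threshold without the block. In edgeR fits that left out 1 animal, the Syt7 log2 fold change ran from -0.53 to -0.36 and the call was lost without WT 1, WT 2, WT 3, Het 3, KO 1 or KO 2 (adjusted p between 0.0591 and 0.146), and the Syt16 call was kept only without KO 3 and lost without any other animal (0.0664 to 0.208). Fitted per run, Syt7 was at -0.39 in run 1 (adjusted p = 0.888) and -0.42 in run 2 (0.0301), and Syt16 at -0.21 (0.902) and -0.31 (0.0493).

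**Figure D3:**
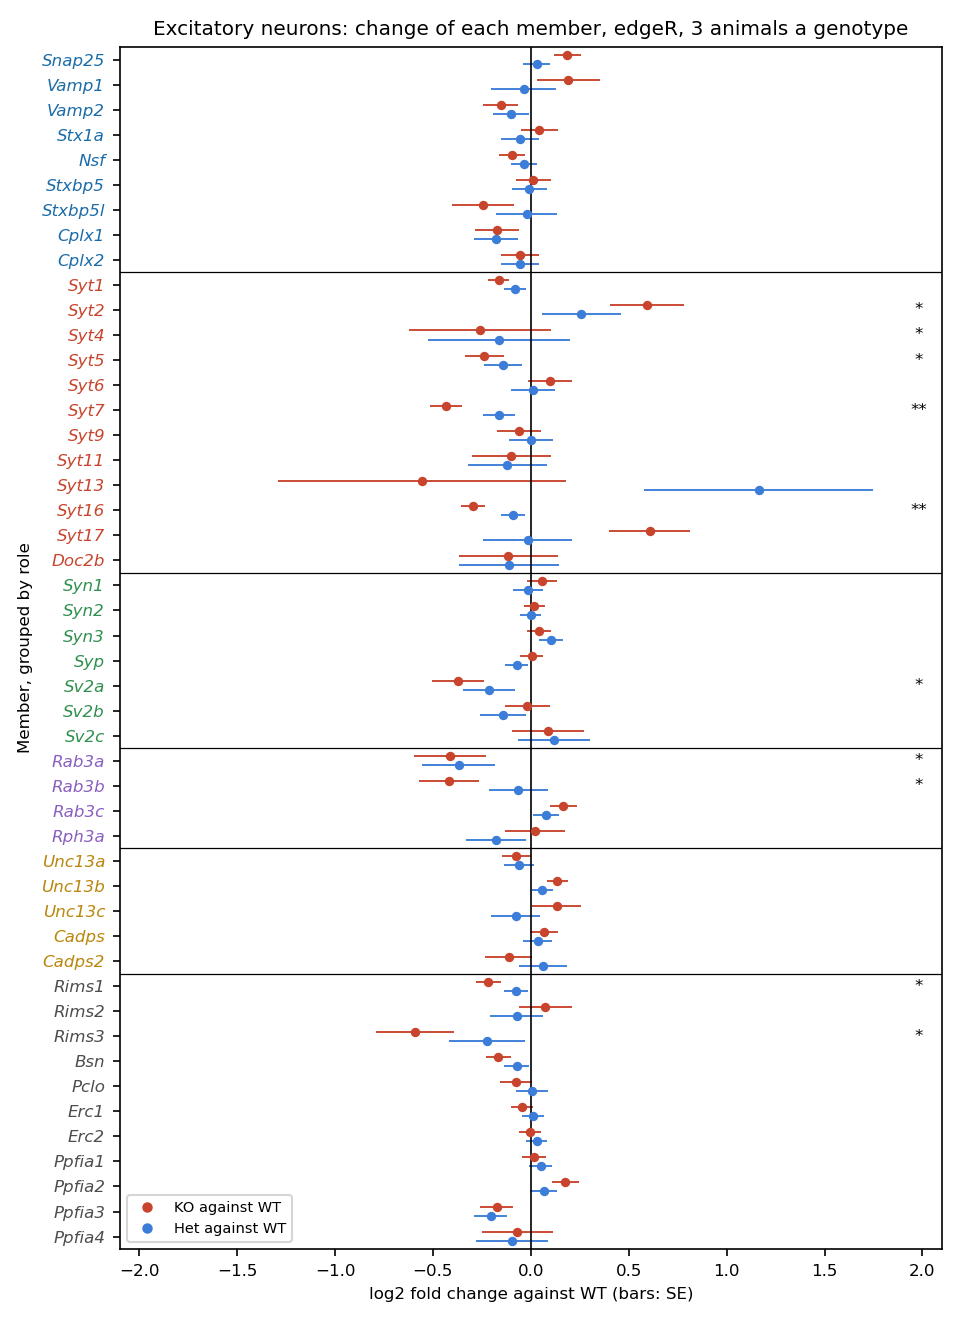
Log2 fold change against WT in excitatory neurons for each of the 48 genes (rows by role), KO in red and Het in blue, with bars of 1 SE from edgeR over 3 animals per genotype. A double asterisk marks a call without the replicate block (Syt7 and Syt16) and a single asterisk a call made only with it.

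With the replicate block, the excitatory count became 10 of 48 (9 lower, 1 higher), beside 995 of 18511 genes (5.38%). The 8 added genes were the vesicle GTPases Rab3a and Rab3b, the scaffolds Rims1 and Rims3, the vesicle protein Sv2a, the synaptotagmins Syt4 and Syt5, all lower, and Syt2, higher. Syt2, at a mean of 2.84 CPM, was no higher here than in cluster 27. Rims1, which ties vesicles to calcium channels, was at 335, 334 and 334 CPM in WT, 327, 285 and 330 CPM in Het and 297, 262 and 289 CPM in KO, a log2 fold change of -0.22 that had an edgeR adjusted p of 0.157 without and 0.0160 with the block. Its KO and WT animals did not overlap. Sv2a was at 65.7, 78.7 and 71.6 CPM in WT and 44.1, 50.9 and 69.1 CPM in KO (-0.37, adjusted p = 0.268 without and 0.00568 with the block), and KO replicate 3 lay inside the WT range. Rab3a was at 14.9, 17.96 and 20.2 CPM in WT and 8.71, 13.9 and 16.1 CPM in KO (-0.41, adjusted p = 0.397 and 0.00729). Syt4 shows what the block removes. Its replicate 1 animals were low in each genotype, at 75.0 CPM in WT, 59.4 CPM in Het and 52.0 CPM in KO, whereas the other animals lay between 110 and 155 CPM, and its adjusted p went from 0.852 to 0.00902. The summed early-neuron genes were low in the same animals, at 1874, 1687 and 1524 CPM against 2396 to 2898 CPM in the others. The part of this difference in the calls was not tested.

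**Figure D4:**
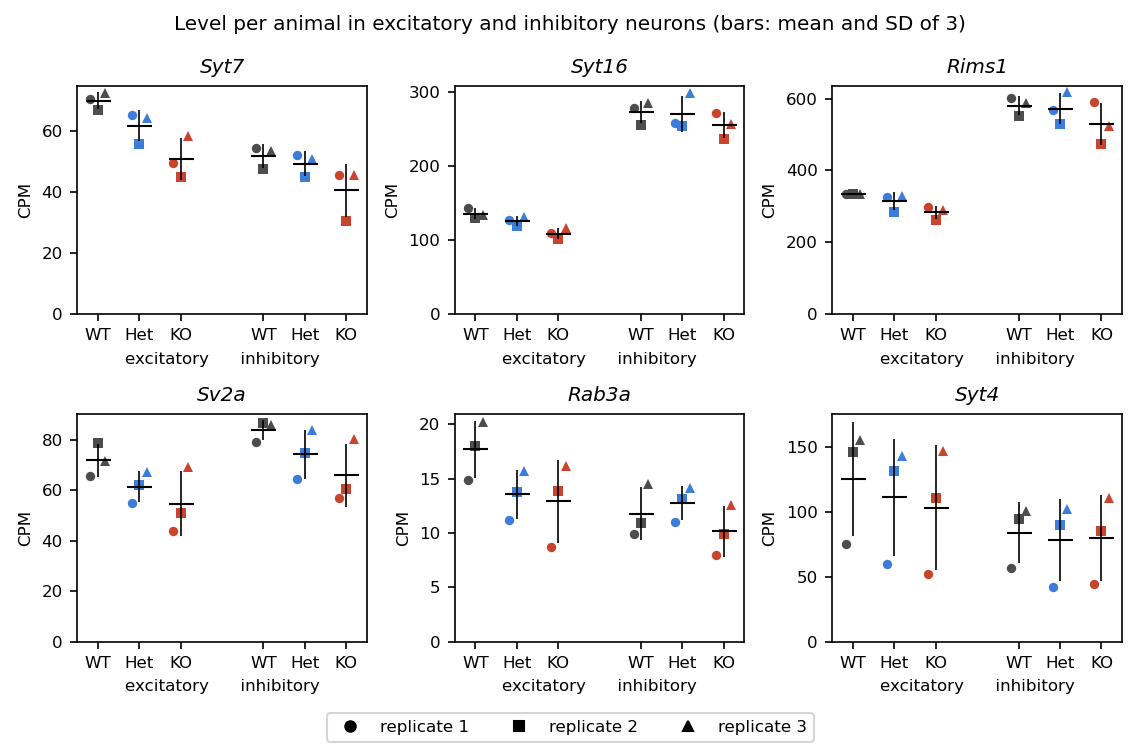
CPM of Syt7, Syt16, Rims1, Sv2a, Rab3a and Syt4 in excitatory and inhibitory neurons by genotype, with 1 point per animal, the marker shape giving the replicate number, and bars for the mean and SD of 3 animals. For Syt7 in excitatory neurons the WT animals sit between 66.8 and 72.2 CPM and the KO animals between 44.7 and 58.2 CPM, and for Syt4 the replicate 1 animals lie lowest in each genotype.

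Without the block, 16 of the 48 genes were at an unadjusted p under 0.05 (6 higher, 10 lower), compared with 12.1% of all genes. The median log2 fold change of the 48 was -0.06, that of all genes -0.01. By role, the fold changes were below 0 for 9 of 12 synaptotagmins (median -0.14), 8 of 11 active zone scaffolds (median -0.07) and 5 of 9 SNARE genes (median -0.05). In the Rab3 group they were below 0 for 2 of 4 genes (median -0.20), in the priming factors for 2 of 5 (0.07) and in the vesicle membrane group for 2 of 7 (0.02). Of the genes most raised during differentiation, Snap25 was at 417, 353 and 368 CPM in WT and 450, 412 and 411 CPM in KO (0.19, adjusted p = 0.288), and Rab3c had a fold change of 0.17 (adjusted p = 0.343). Syt1, the fast calcium sensor, had -0.17 (adjusted p = 0.220). KO animals all lay above WT for 4 of the 48 genes and all below for 9 (Bsn, Erc1, Ppfia3, Rims1, Rims3, Syt1, Syt16, Syt5 and Syt7), beside 7.31% and 9.1% of all genes.

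Among the 68 other release and recycling genes, 63 could be tested in excitatory neurons and 3 were called in KO, beside 0.778% of all genes. The dynamins Dnm1 (-0.50, SE 0.107, edgeR adjusted p = 0.0496) and Dnm3 (-0.33, SE 0.069, adjusted p = 0.0496), which pinch off recycling vesicles, were lower, and Stxbp4, a syntaxin-binding protein, was higher (0.35, SE 0.072, adjusted p = 0.0431). With the block, Doc2g, Pacsin1, Rims4 and Snap47 (lower) and Snap23 (higher) were added, where 5.38% of all genes were called. These calls lie at the threshold, and the count of calls among the 63 was 0 to 1 in fits that left out 1 animal. Other annotated genes overlap Dnm1, Dnm3 and Stxbp4, for Dnm1 on the opposite strand only, and their reads could not be told apart here.

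Lists of general maturity were read in the same nuclei. Of 12 early-neuron genes none was called by edgeR in KO excitatory neurons (median log2 fold change -0.04), and of 12 maturing-neuron genes 1 was called, Mapt, which was lower (median -0.03). Of 12 cell cycle genes none was called, 11 were below 0 and the median was -0.23, with a summed level of 164 to 217 CPM in WT and 147 to 171 CPM in KO. With the block Sox4 of the early genes, Mapt and Nrcam of the maturing genes and Mki67 and Top2a of the cell cycle genes were called, all lower. The part of cell cycle and maturity genes in the changes of Syt7 and Syt16 was not tested.

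In Het compared to WT no gene at all was called by edgeR in excitatory neurons (0 of 18511, 0%), although 716 genes were at an unadjusted p under 0.05, or 3.87%, of which Ppfia3 (-0.20) was the only release gene. DESeq2 also made 0 calls (308 genes below an unadjusted p of 0.05, 2 of them release genes), and the block gave 9 genes (0.0486%) and 0 release genes. The Het fold change of Syt7 was -0.16 (SE 0.083) and that of Syt16 -0.09. Het animals all lay above WT for none of the 48 genes and all below for 5 (Bsn, Ppfia3, Rims1, Syp and Syt7), beside 4.68% and 5.41% of all genes. In the other 6 classes edgeR called 0 genes (0%) without the block, with 177 to 350 genes at an unadjusted p under 0.05, and DESeq2 called 0. With the block 1 of 18788 genes was called in inhibitory neurons (0.00532%), which was no release gene, and 0 in the other 5.

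In KO inhibitory neurons edgeR called 3 of 18788 genes (0.016%) and 0 of the 48. Here 7 of the 48 lay below an unadjusted p of 0.05 (2 higher, 5 lower), beside 5.77% of all genes, and with DESeq2 20 genes were called, again 0 of the 48. Syt7 was at 54.5, 47.4 and 53.4 CPM in WT, 52.1, 44.7 and 50.8 CPM in Het and 45.4, 30.5 and 45.5 CPM in KO, so KO lay below WT in this class too, at a log2 fold change of -0.33 (SE 0.123, adjusted p = 0.791). With the block Syt7 (-0.35, adjusted p = 0.0488), Sv2a (-0.33, adjusted p = 0.0398) and Rims3 (-0.48, adjusted p = 0.0402) were called, all lower, beside 132 genes (0.703%). Syt16 was at -0.07 in inhibitory neurons. Rph3a, the Rab3 effector that is highest there, was at 71.7, 70.0 and 71.9 CPM in WT and 94.8, 79.1 and 85.1 CPM in KO, without overlap (0.31, SE 0.080, adjusted p = 0.544). A direct test of whether the KO change differed between inhibitory and excitatory neurons called 19 of 19694 genes (0.0965%) and 0 of the 48. The lowest adjusted p among the 48 was that of Syt16, 0.437, and 6 had an unadjusted p under 0.05, beside 1188 genes in all (6.03%). With DESeq2 22 genes and 0 of the 48 were called, and 2 of the 48, of 336 genes in all, lay below an unadjusted p of 0.05.

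In Cajal-Retzius cells 36 of the 48 genes passed the filter on low counts and 0 were called in KO, beside 23 of 8716 genes (0.264%). Piccolo (Pclo), a large active zone scaffold, came nearest. It was at 421, 347 and 295 CPM in WT, 342, 300 and 284 CPM in Het and 262, 232 and 200 CPM in KO, with no overlap between WT and KO. The log2 fold change was -0.62 (SE 0.138), with an edgeR adjusted p of 0.0526 without and 0.00298 with the block, and DESeq2 gave 0.0409. It was also called without WT 3 or without KO 1, and with the block it was 1 of 94 genes called (1.08%). In these cells 8 of the 36 genes had an unadjusted p under 0.05, 7 of them lower, beside 9.25% of all genes, and the median was -0.19 against -0.01 for all genes. Other members below WT in every KO animal were Bsn, Cadps, Erc2, Stx1a, Syn3 and Syt16, so that 7 of the 36 lay below and 1 (Snap25) above, beside 6.77% and 6.92% of all genes. Of the maturing-neuron genes 8 of the 10 tested were below 0 (median -0.15) and Camk2b was called, lower, with Mapt added by the block, while the 8 early-neuron genes tested had a median of 0.19 and none was called. The part of these genes in the change of the release genes was not tested. With 146 to 302 nuclei per animal this class had the least depth of the neuron classes tested.

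Without the block the progenitors gave no calls. Of KO against WT, edgeR and DESeq2 each called 0 genes in radial glia, in excitatory intermediate progenitors, in inhibitory progenitors and in the choroid plexus and roof group (0%). At an unadjusted p under 0.05 radial glia had 445 genes (2.75%), 2 of them release genes, both higher. The intermediate progenitors had 568 (3.74%), with the release genes Sv2b, Stxbp5, Cadps and Stxbp5l, all higher, and the inhibitory progenitors had 318 (2.63%), with 4 release genes, all lower. With the block 1 gene was called in radial glia (0.00618%) and 8 in the intermediate progenitors (0.0526%), all lower and none a release gene, and 0 in the other 2 classes. Radial glia then had 6 release genes at an unadjusted p under 0.05 (2 higher, 4 lower), beside 5.88% of all genes, and the intermediate progenitors 6 (5 higher, 1 lower), beside 7.16%.

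Within the excitatory neurons the calls lay in the deep-layer clusters 19 and 20. In cluster 19, 3 of the 48 genes were called beside 372 of 13086 (2.84%). Syt7 was at 56.2, 58.7 and 59.2 CPM in WT, 49.2, 50.6 and 52.1 CPM in Het and 35.0, 34.4 and 42.1 CPM in KO. The genotypes formed 3 separate ranges, and the log2 fold change of KO was -0.61 (SE 0.098, edgeR adjusted p = 0.00197). This call held in every fit that left out 1 animal, and in run 1 alone its adjusted p was 0.191. Snap25 was higher, with 412, 359 and 381 CPM in WT, 444, 399 and 385 CPM in Het and 503, 470 and 452 CPM in KO (0.34, SE 0.072, adjusted p = 0.0160). Rab3c also was higher, with 596, 615 and 586 CPM in WT, 648, 683 and 628 CPM in Het and 717, 809 and 678 CPM in KO (0.33, SE 0.077, adjusted p = 0.0278). For both genes every KO animal lay above every WT animal, and for Rab3c every Het animal did too. The Snap25 call was lost without WT 2, WT 3, KO 1 or KO 2 (adjusted p between 0.0582 and 0.0904) and the Rab3c call without WT 1, WT 2, WT 3, KO 1 or KO 2 (0.0534 to 0.152), with the direction kept. In this cluster 3 of the 12 maturing-neuron genes were called too, all lower (Grin2b, Mapt and Nrcam), and 4 with the block, while 0 of the early-neuron and 0 of the 10 tested cell cycle genes were called by edgeR without it. Sox4 of the early-neuron genes was called with the block, lower. All 10 cell cycle genes lay below 0 without the block (median -0.16). The part of these genes in the calls was not tested. With the block 13 of the 48 were called, 4 higher (Rab3c, Snap25, Ppfia2 and Unc13b) and 9 lower (Bsn, Rab3a, Rims1, Stxbp5l, Sv2a, Syn2, Syt16, Syt4 and Syt7), beside 881 genes (6.73%).

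In cluster 20, the most mature excitatory cluster, 3 of the 48 were called beside 281 of 13104 genes (2.14%). Syt7 was at 108, 108 and 122 CPM in WT, 111, 94.8 and 104 CPM in Het and 75.0, 74.6 and 87.9 CPM in KO (-0.48, SE 0.089, edgeR adjusted p = 0.0124). The tomosyn-like gene Stxbp5l was at 128, 94.6 and 92.0 CPM in WT, 107, 83.1 and 118 CPM in Het and 73.1, 54.0 and 68.8 CPM in KO (-0.66, SE 0.142, adjusted p = 0.0278). KO lay below WT without overlap for both. Syt17, a synaptotagmin relative of uncertain calcium dependence, was higher in KO, at 8.95, 6.67 and 5.29 CPM against 2.24, 2.30 and 3.41 CPM in WT, but from few molecules (1.402, SE 0.293, adjusted p = 0.0235). DESeq2 called Syt7 and Stxbp5l but gave Syt17 no adjusted p. Leaving out 1 animal ended the call of Syt7 for WT 3 or KO 2 (adjusted p = 0.0666 for both), of Stxbp5l for WT 1, WT 2, KO 2 or KO 3 (0.0508 to 0.136) and of Syt17 for WT 1, WT 2, KO 1 or KO 2 (0.0652 to 0.0931). With the block 12 of the 48 were called, 4 higher (Ppfia2, Snap25, Syt17 and Unc13c) and 8 lower (Pclo, Rab3b, Rims1, Stxbp5l, Sv2a, Syt16, Syt7 and Syt9), beside 1008 genes (7.69%). Mapt of the maturing-neuron genes and Sox4 of the early-neuron genes were also called with the block, both lower. In clusters 17, 18 and 22 edgeR called 2, 0 and 1 genes (0.0167%, 0% and 0.0102%) without the block and 74, 20 and 9 (0.617%, 0.151% and 0.0918%) with it, and 0 of the 48 in either fit.

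**Figure D5:**
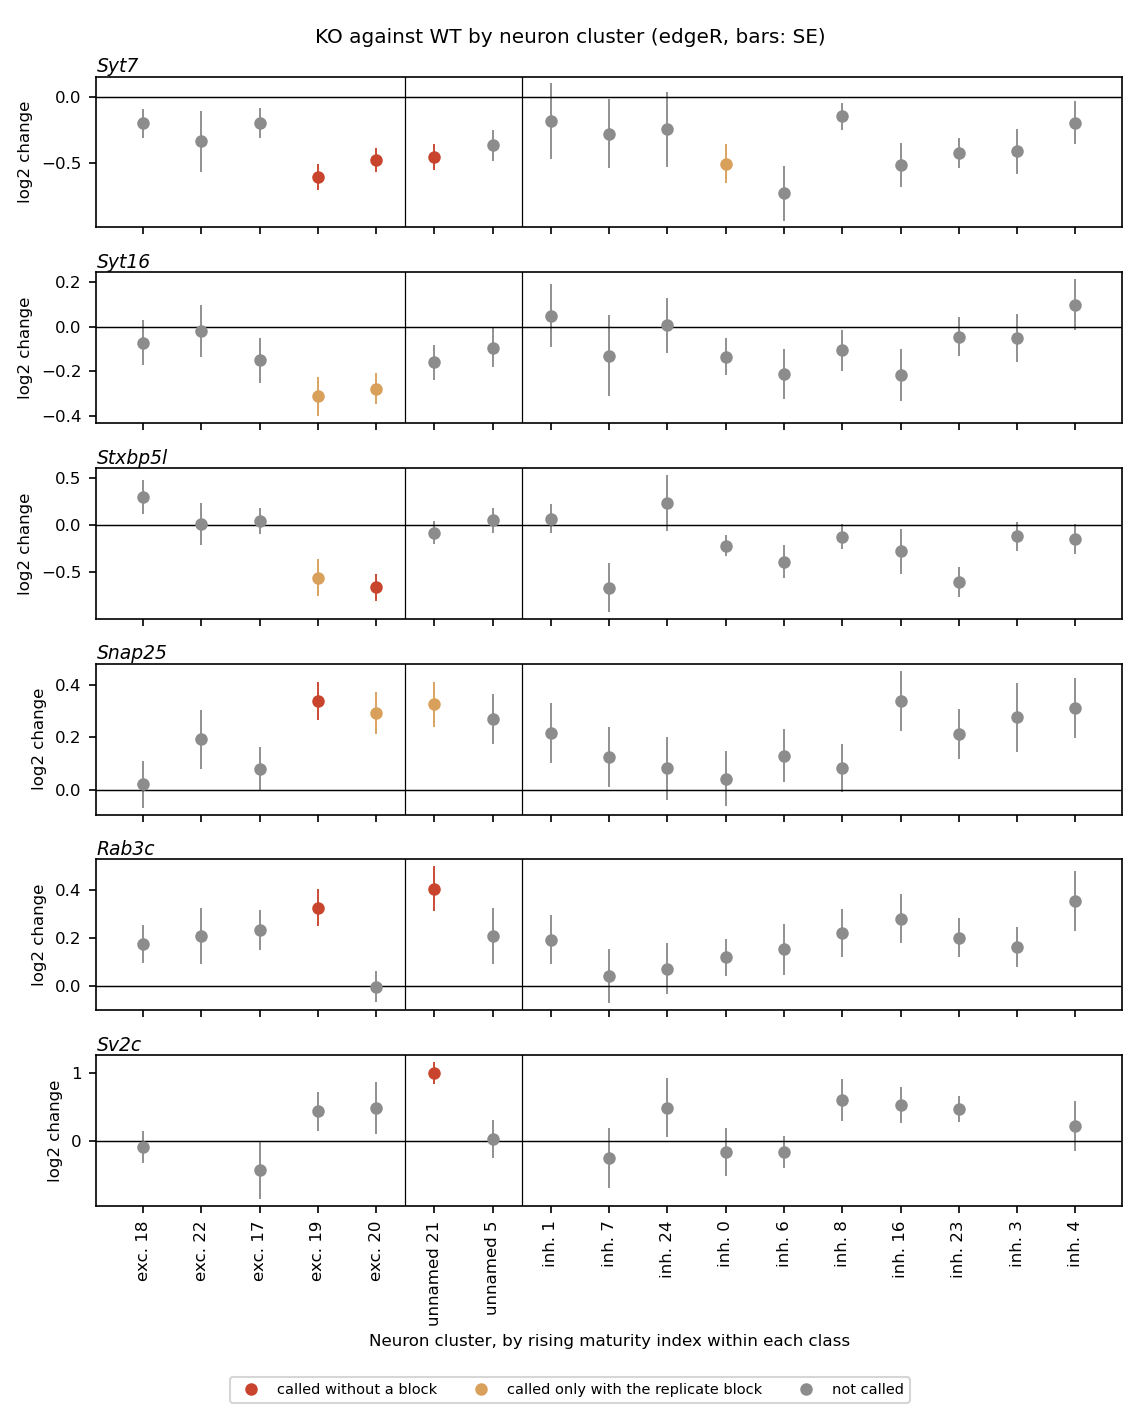
Log2 fold change of KO against WT (bars 1 SE, edgeR, 3 animals per genotype) for Syt7, Syt16, Stxbp5l, Snap25, Rab3c and Sv2c in the neuron clusters, ordered by lineage and maturity, with marked points for calls. Syt7 lies below 0 in each of the 5 excitatory and 10 inhibitory clusters and Snap25 above 0 in each of them; Sv2c could not be tested in clusters 22, 1 and 3.

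The direction of the Syt7 change was shared beyond the called clusters. It was below 0 in 5 of 5 excitatory clusters (-0.61 to -0.19) and in 10 of 10 inhibitory clusters (-0.73 to -0.15). Snap25 was above 0 in all 15, Rab3c in 14 of 15, and Syt16 was below 0 in 5 of 5 excitatory and 7 of 10 inhibitory clusters. These clusters come from the same 9 animals, so the counts are no independent repeats. In medial ganglionic eminence interneurons of cluster 0, edgeR called 67 genes (0.558%) and 0 of the 48, and with the block 229 genes (1.91%) and 4 of the 48, namely Cadps2 (higher) and Rims1, Sv2a and Syt7 (lower). The other 9 inhibitory clusters had 0 of the 48 called in either fit, beside 0 (0%, cluster 1 among others) to 34 genes (0.34%, cluster 3) without the block and 0 to 72 genes (0.72%, cluster 3) with it.

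An unnamed neuron cluster, number 21, with 12274 nuclei led by Tafa1 and Tfap2d, was tested after the data had been seen. Here 3 of the 48 were called beside 174 of 14085 genes (1.24%). Sv2c was at 13.2, 15.0 and 12.7 CPM in WT, 18.1, 14.2 and 19.9 CPM in Het and 21.7, 25.1 and 32.4 CPM in KO (0.99, SE 0.163, edgeR adjusted p = 0.00611), and the call held in every fit that left out 1 animal. Rab3c was at 272, 276 and 267 CPM in WT, 312, 328 and 282 CPM in Het and 373, 376 and 310 CPM in KO (0.40, SE 0.093, adjusted p = 0.0428). Syt7 was at 94.5, 73.6 and 84.9 CPM in WT, 79.3, 75.1 and 86.8 CPM in Het and 58.3, 56.2 and 66.3 CPM in KO (-0.46, SE 0.099, adjusted p = 0.0309). KO did not overlap WT for any of these 3 genes. Of the maturing-neuron genes Nrcam was called here, lower, and with the block also Mapt, beside Sox4 and Eomes of the early-neuron genes. The Rab3c call was lost without any one of WT 1, WT 2, WT 3, Het 1, KO 1 and KO 2 (adjusted p between 0.0561 and 0.239) and the Syt7 call without WT 1, WT 3, KO 1 or KO 2 (0.102 to 0.154). With the block 6 of the 48 were called, with Snap25 and Unc13b (higher) and Rims1 (lower) added, beside 609 genes (4.32%). The other unnamed neuron cluster, number 5, with 5523 nuclei, was tested in the same way and had 0 of the 48 called, beside 19 genes (0.164%) without and 83 (0.718%) with the block.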

How the data were processed

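Nuclei of 9 E14 forebrains (3 each of WT, Het and KO, grouped by the sample titles because the genotype tag of run 1 reads WT throughout) were sequenced in 2 runs with Scale Biosciences combinatorial barcoding, and the authors deposited expected counts, that is estimated UMI counts per gene and nucleus that need not be whole (mm10 build, with Seurat 4.3.0, Scanpy 1.12.0 and DESeq2 1.38.3 named in the submitters' processing notes). Of the entries, 6.70 to 8.71% per library were not whole. From these deposited estimated counts, nuclei with 800 to 6000 UMIs, 300 to 3000 genes and a mitochondrial share of 1% or less were kept if log genes over log UMIs reached 0.9, the 5% with the highest Scrublet doublet score per library were removed, and the rest were clustered with scanpy 1.11.5 (3000 variable genes, 50 components, 20 neighbours, Leiden resolution 1, seed 0). A total of 39794 barcodes lay above the upper limits, many of which also failed another limit or were marked as doublets. By the upper limits alone, 390 to 1074 barcodes per library were removed. Kept nuclei had a median of 2714 to 4102 UMIs per library in run 1 and 1865 to 2804 in run 2. Barcodes shared between libraries were kept. Counts of both runs were summed per animal and class, rounded and tested over 9 animals with edgeR 4.0.16 (filterByExpr, TMM, quasi-likelihood F-test, genotype as the only term). SE is the log2 fold change divided by the square root of F. No per-sample columns were left out. The model without the block was run on simulated counts of independent animals, with changes set only in genes of high counts. The fit with the block was not checked in this way.

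Replicate numbers come from the titles and were taken to pair the samples, since the deviations of same-numbered animals from their genotype mean correlated at 0.103 to 0.321 (27 correlations over classes and genotype pairs), and every one was over 0.1. The same tests were repeated with a replicate block, with DESeq2 1.42.0, without the count filter, without the upper limits, without doublet removal, with the members kept in the clustering, per run, with only WT and KO animals and without each animal in turn. Named by rule were the genes called between genotypes and, in each role, the 2 with the largest and the 1 with the smallest log2 ratio of excitatory neurons to radial glia among those of at least 20 CPM; other genes were named after their values were seen. The members and all gene lists were chosen with earlier results of these data known. Animals are separate embryos. Gene positions were taken from GENCODE vM21, and 34 of the 48 genes overlap another annotated gene, whose reads in nuclear RNA may be counted with theirs.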

Additional observations from a re-analysis of the deposited data

How the results depend on the processing

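No result turned its direction under an alternative. Some ratios of excitatory neurons to radial glia moved in size, under 3 alternatives for Syt1 and Unc13c. Those of Snap25, Ppfia2, Sv2b and Cadps2, among others, moved under 2. The counts of release genes called in KO depended on the fit. In excitatory neurons 2 genes were called, against 4 without the filter on low counts, 10 with the replicate block, 0 in run 1 alone, 1 without the upper limits on UMIs and genes, 0 with only the 6 WT and KO animals and 0 to 4 when 1 animal was left out. Over all genes there the count was 144 with edgeR, 254 with DESeq2 and 995 with the replicate block. In inhibitory neurons 0 became 3 with the replicate block, and in Cajal-Retzius cells 0 became 1 (Pclo) with DESeq2, without the filter, with the replicate block, without the upper limits, without doublet removal and when members and pathway genes were kept in the clustering, with 0 to 1 when 1 animal was left out. The 3 calls of cluster 19 became 9 without the filter, 13 with the replicate block, 0 in run 1 and 1 to 5 when 1 animal was left out. The 3 of cluster 20 became 6, 12, 0 and 0 to 5 under the same settings and 2 with DESeq2, which gave Syt17 no adjusted p, and the 3 of cluster 21 became 6 with the replicate block, 0 in run 1, 1 in run 2 and 1 to 6 when 1 animal was left out. Cluster 0 went from 0 to 1 without the filter and to 4 with the replicate block, and clusters 7 and 23 went from 0 to 1 without the filter. Het excitatory neurons went from 0 to 1 without the filter, as did the test of the difference between inhibitory and excitatory neurons (Syt1). For the other release and recycling genes, 3 calls in excitatory neurons became 8 with the replicate block, 0 in run 1, 0 with only the 6 animals and 0 to 1 when 1 animal was left out, and 0 in inhibitory neurons became 1 with the replicate block. The replicate block changed no other of these counts of release and recycling genes. Dropping the filter changes which genes are tested and a single run or 6 animals leaves fewer reads or samples, and for the other alternatives the cause was not tested.

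With 3 animals per genotype, genes of a few CPM, such as Syt17, Syt2 and Rims3, rest on few molecules, and in Cajal-Retzius cells 12 of the 48 genes could not be tested. A call that was missed is no sign of equal levels. The neuron classes are rebuilt from marker lists, intervals cover these animals only, and free RNA or doublets that remain would lift low levels in the progenitors.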
